A study of Mus musculus with 5 samples.

Results

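The nuclear genes of oxidative phosphorylation were followed through H3K9ac ChIP-sequencing of STHdh Q111 cells, a conditionally immortalized striatal progenitor line of the mouse (strain label C57BL/6) that is homozygous for mutant huntingtin (STHdhQ111/Q111). All cells were kept in serum-free medium for 24 h. The Q111 DOP group (2 samples) received 4 mM 4-deoxypyridoxine hydrochloride (DOP), an inhibitor of sphingosine-1-phosphate lyase, and the Q111 SST group (2 samples) received vehicle, DPBS. A single IgG sample of serum-starved Q111 cells served as the negative control of the immunoprecipitation and was not used here, and wild-type Q7 cells were not analysed here. All samples come from 1 line, so it is not known how far the values hold in other lines or in striatal tissue.

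The genes were chosen by symbol among the 22380 protein-coding genes of the annotation. Those beginning with Ndufa, Ndufb, Ndufc, Ndufs, Ndufv, Uqcr, Atp5, Cox4i, Cox5, Cox6, Cox7 or Cox8 were taken, as were Sdha, Sdhb, Sdhc, Sdhd, Cycs and Cyc1, which gave 93 gene models under 92 symbols. Ndufb8 is annotated as 2 models that share peaks, and Atp5l-ps1 is counted as protein-coding although its symbol marks a pseudogene. Each gene was given the peaks centred 10 kb or less from one of its annotated transcript starts. The deposited lists hold 34286 peaks for the DOP group and 33355 for the SST group, as intervals of 200 bp that each carry a score, and each list is 1 call for its condition. No replicate error can therefore be given and no test was run, and every comparison is between 2 lists. Confidence intervals of shares cover counting error only, and those of medians cover only the spread between genes. Depth per sample is not known. Scores were used as ranks within their own list, given as percentiles in which 100 is the highest score.

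Oxidative phosphorylation takes electrons from NADH through complex I, or from succinate through complex II, to ubiquinone, complex III, cytochrome c and complex IV, and uses the proton gradient that this builds to make ATP in complex V. Most subunits are encoded in the nucleus, translated in the cytosol and imported, and neurons depend on this pathway for most of their ATP. Acetylation of histone H3 at lysine 9 (H3K9ac) is a mark of active promoters and is typically found on the nucleosomes that flank the start of a transcribed gene.

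Upstream flanks are printed here for the gene with the highest-ranking peak within 10 kb in each complex, as far as the flank lay outside annotated UTRs, and for 3 genes with no peak or with a peak in a single list. For Ndufc1 and Uqcr11 that peak lay more than 5 kb from the start, in Naa15 and Mbd3. Their flanks are therefore not chosen by the peaks at their own promoters. Each sequence holds the 200 bases before the annotated start in mm9, 5′ to 3′ on the strand of the gene. Capitals mark matches to any of 4 short patterns searched on both strands, independently of each other, so that matches may overlap. The patterns were CGCANGCG for NRF1, CCGGAAG for the ETS family that includes GABP, AAGATGGC for YY1 and GGGCGGG for Sp1, factors known to act at promoters of respiratory chain genes. The flanks are Ndufc1 at chr3:51212911-51213110 (minus strand), Sdhb at chr4:140516918-140517117 (plus), Uqcr11 at chr10:79869576-79869775 (minus), Cox6c at chr15:35868002-35868201 (minus) and Atp5g2 at chr15:102501479-102501678 (minus). Those of genes without a peak, or with 1 weak peak, are Cox8b at chr7:148086346-148086545 (minus), Atp5l-ps1 at chr7:69620992-69621191 (plus) and Cox4i2 at chr2:152579709-152579908 (plus).
Ndufc1: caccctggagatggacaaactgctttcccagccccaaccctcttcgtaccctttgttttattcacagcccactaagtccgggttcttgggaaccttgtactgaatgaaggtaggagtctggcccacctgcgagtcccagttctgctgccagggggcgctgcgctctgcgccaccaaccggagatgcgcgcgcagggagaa
Sdhb: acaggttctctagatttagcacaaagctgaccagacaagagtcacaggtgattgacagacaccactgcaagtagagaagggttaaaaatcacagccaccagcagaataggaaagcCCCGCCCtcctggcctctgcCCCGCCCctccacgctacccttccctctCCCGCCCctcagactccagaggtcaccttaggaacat
Uqcr11: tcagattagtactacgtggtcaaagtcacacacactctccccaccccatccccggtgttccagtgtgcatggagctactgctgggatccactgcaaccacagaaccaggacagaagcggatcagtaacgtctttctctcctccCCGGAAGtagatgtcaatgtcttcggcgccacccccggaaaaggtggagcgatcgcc
Cox6c: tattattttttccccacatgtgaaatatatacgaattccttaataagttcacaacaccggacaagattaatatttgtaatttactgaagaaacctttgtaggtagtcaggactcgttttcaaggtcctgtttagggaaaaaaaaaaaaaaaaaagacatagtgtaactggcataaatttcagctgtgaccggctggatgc
Atp5g2: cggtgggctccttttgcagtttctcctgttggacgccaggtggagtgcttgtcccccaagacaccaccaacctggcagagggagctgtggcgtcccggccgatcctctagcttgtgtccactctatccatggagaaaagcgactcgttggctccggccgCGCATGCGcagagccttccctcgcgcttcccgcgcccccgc
Cox8b: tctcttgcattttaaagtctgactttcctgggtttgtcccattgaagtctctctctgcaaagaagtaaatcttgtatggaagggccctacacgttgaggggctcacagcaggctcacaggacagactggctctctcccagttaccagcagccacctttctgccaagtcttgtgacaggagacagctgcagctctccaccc
Atp5l-ps1: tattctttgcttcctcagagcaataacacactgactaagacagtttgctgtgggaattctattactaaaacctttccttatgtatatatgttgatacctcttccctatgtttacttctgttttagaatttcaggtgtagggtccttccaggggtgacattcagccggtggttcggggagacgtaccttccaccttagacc
Cox4i2: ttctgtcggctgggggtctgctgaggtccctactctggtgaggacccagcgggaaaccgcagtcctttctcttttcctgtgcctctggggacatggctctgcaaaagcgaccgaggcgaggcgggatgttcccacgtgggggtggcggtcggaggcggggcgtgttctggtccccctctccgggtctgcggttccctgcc

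Sdhb carried 3 Sp1 matches in its flank, Uqcr11 carried 1 ETS match whose first base lies at position -57 from the start, and Atp5g2 carried 1 NRF1 match at position -41. The other 5 flanks held no match. GC content was 64.5% in the flank of Atp5g2 and 34.0% in that of Cox6c, whose H3K9ac peaks ranked almost as high. The highest peaks of Cox6c, 160 bp (DOP) and 65 bp (SST) downstream, were measured from another annotated start than the printed flank. In a wider window on both sides of the start used for the flank, GC content was 51% for Cox6c and 58.1% for Atp5g2. The observed to expected CpG ratios there were 0.821 and 0.745. The value of 34.0% thus describes the printed flank only. The flank of Cox4i2, which had no peak, was 66.0% GC. A match is a stretch of letters and not a shown binding site.

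Over the promoter window from 250 bases before to 50 after the start, an NRF1 match was found in 26 of the 93 genes (28.0%), against 10.5% of all protein-coding genes. YY1 matches stood in 11 (11.8%, against 3.45%) and ETS matches in 17 (18.3%, against 10.9%). Sp1 matches, in 28 genes (30.1%), were no more frequent than in all genes (32.7%). Cytosolic ribosomal, mitochondrial ribosomal and proteasome genes had NRF1 matches in 17.6%, 22.1% and 21.4%, and YY1 matches in 5.88%, 18.2% and 11.9%. ETS matches stood in 32.9%, 36.4% and 31.0% of these families and Sp1 matches in 42.4%, 41.6% and 52.4%. Among genes with a peak, where promoters are richer in such letters, the shares were 30.2% against 16.2% for NRF1, 12.8% against 4.72% for YY1, 19.8% against 16.9% for ETS and 29.1% against 46.0% for Sp1. All 26 members with an NRF1 match had a peak in each list, and over all genes with such a match the share was 90.3% in the DOP list and 90.1% in the SST list. A second feature was position: 25 of the 93 genes (26.9%) had another protein-coding gene starting within 1 kb upstream on the opposite strand, against 8.75% of all genes. This was not particular to the set, since the share was 31.2% in mitochondrial ribosomal, 19.0% in proteasome and 15.3% in cytosolic ribosomal protein genes. Among the 25, some neighbours lay very near. For 13 of them the start of the neighbour lay within 100 bp, as for Ndufb11 and Rbm10 (3 bp) or Ndufs1 and Eef1b2 (3 bp). At such pairs a peak cannot be given to one gene rather than the other.

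Nearly all oxidative phosphorylation genes carried H3K9ac in both conditions. The DOP list held peaks for 85 of the 93, which is 91.4% (Wilson interval at 95% confidence, 83.9% to 95.6%), and all protein-coding genes gave 57.7%. The SST list also gave 85 of 93, or 91.4%, against 56.9%. Peaks of both lists lay near 84 genes. Within 1 kb of a start, 81 genes had a DOP peak (background 51.4%) and 82 had an SST peak (background 50.8%). These shares are close to those of other widely expressed gene families, with 96.5% of cytosolic ribosomal protein genes, 98.7% of mitochondrial ribosomal protein genes and 97.6% of proteasome subunit genes holding a peak in each list. Of the 7 oxidative phosphorylation genes with 0 peaks in both lists, 6 encode isoforms restricted to certain tissues and 1 is Atp5l-ps1. Leaving out the 8 restricted isoforms and Atp5l-ps1, 83 of 84 models had a DOP peak and 84 an SST peak.

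Around these genes lay 291 DOP peaks and 289 SST peaks. A median of 3 peaks per gene was found in each list, as for all genes with a peak. Of the DOP peaks 34 (11.7%) overlapped no SST peak, and over all peaks near protein-coding genes this share was 16.2%. Of the SST peaks 33 (11.4%) overlapped no DOP peak, against 13.3%. These peaks were weaker than the others, with a median percentile of 25.4 in the DOP list and 32.5 in the SST list, while those with an overlapping partner stood at 63.4 and 62.5. In the DOP list 55.3% of the peak centres fell in introns, 11.7% in coding exons, 9.28% in a 5′ UTR and 14.8% outside protein-coding genes. The SST list gave 58.8%, 10.4%, 9.69% and 12.5%. The nearest annotated start belonged to an oxidative phosphorylation gene for 173 of the DOP peaks (59.5%) and 180 of the SST peaks (62.3%), and to another gene for the rest.

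**Figure D1:**
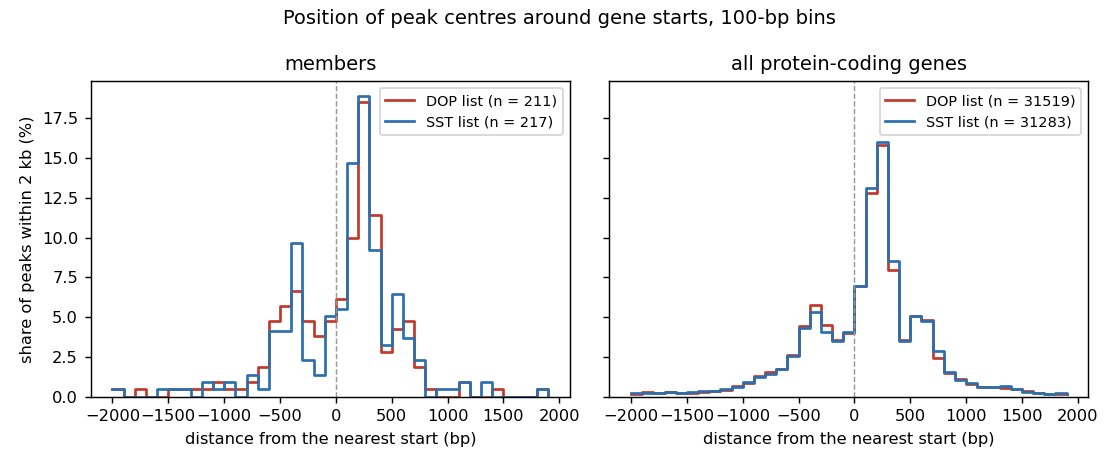
Share of peaks (y axis, percent of the peak and gene pairs within 2 kb) by distance of the peak centre from the nearest start of the gene (x axis, bp, downstream positive, bins of 100 bp), for the oxidative phosphorylation genes on the left and all protein-coding genes on the right, with the DOP list in red and the SST list in blue. In both panels and both lists the highest bin lies from 200 to 300 bp downstream and a lower mode lies from 400 to 300 bp upstream.

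The peaks flanked the start on both sides. The fullest bin ran from 200 to 300 bp downstream, with 39 peaks in the DOP list and 41 in the SST list. Upstream, the bin from -400 to -300 bp was fullest, with 14 and 21 peaks, and the 200 bp from -500 to -300 held 26 and 30 peaks where the 200 bp before the start held 18 and 14. Between 100 and 400 bp downstream lay 39.8% of the DOP peaks within 2 kb and 42.9% of the SST peaks, against 36.7% and 37.6% over all genes. The arrangement was thus like that of promoters in general. The largest gap between the lists, picked out of all bins, was from 100 to 200 bp downstream, with 21 DOP and 32 SST peaks. Over all genes the lists hardly differed in this bin, with 4038 and 4085 peaks (12.8% and 13.1% of those within 2 kb).

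The rank of the highest peak was close to that of other marked genes. Its median percentile was 83.0 in the DOP list and 81.5 in the SST list (95% order-statistic intervals 78.0 to 86.8 and 75.6 to 86.1), against 78.4 and 77.3 over all genes with a peak. The latter lie within these intervals, which describe the spread between genes of 1 call and are no test. The cytosolic ribosomal protein genes stood higher, at 88.5 and 88.8. Restricted to peaks within 1 kb, the medians of the oxidative phosphorylation genes were 80.3 and 81.1. Genes with a highest peak above percentile 90 numbered 28 of 85 in each list (32.9%), against 27.3% and 26.6% of all genes with a peak. For 10 genes in the DOP list (11.8%, all genes 12.2%) and 13 in the SST list (15.3%, all genes 11.9%) the highest peak lay more than 5 kb from the start.

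**Figure D2:**
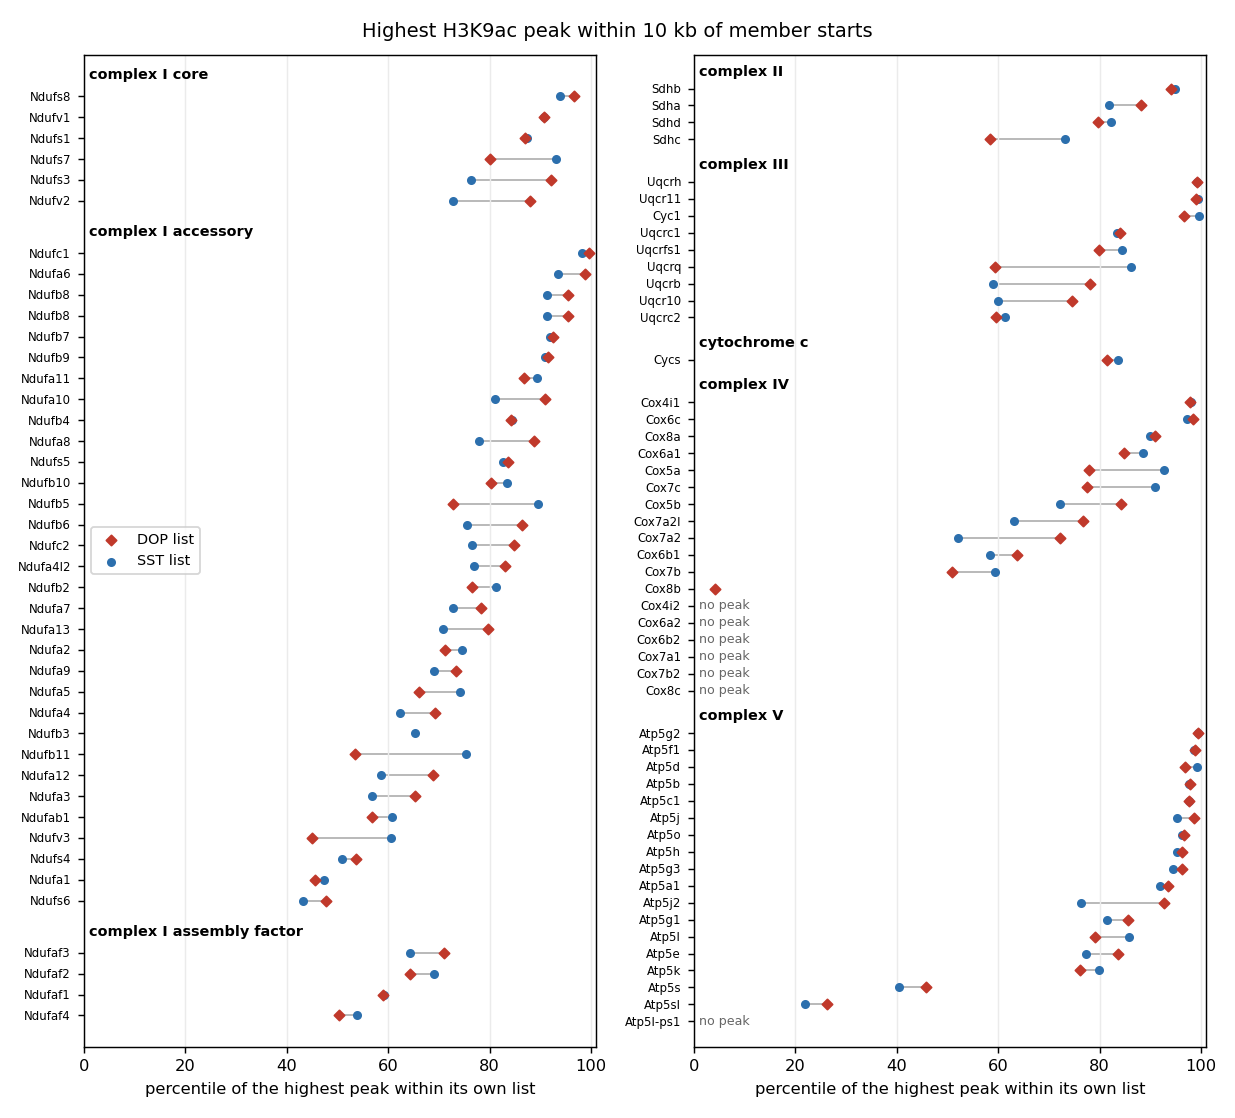
Percentile of the highest-scoring peak within 10 kb of the starts (x axis, 100 = highest score of the list) for 92 of the 93 gene models (y axis, grouped by role and ordered by the mean of both lists). Red diamonds are the DOP list, blue circles the SST list, each 1 value without error, and "no peak" marks the 7 models with none. Subunits of complex V crowd at the top, with 11 of 17 above percentile 90 in the DOP list.

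Complex I is the entry point for NADH, and its core subunits are encoded partly in the nucleus and partly in mitochondrial DNA. The 7 nuclear ones carry the flavin and the iron-sulfur clusters and help to form the quinone site. All 7 had peaks in both lists, with a median percentile of 88.0 in the DOP list and 87.3 in the SST list, and 87.0 and 76.3 within 1 kb. Ndufs8, an iron-sulfur subunit, ranked highest at 96.7 and 93.8, but this peak lay 5978 bp and 6012 bp downstream in the 5′ UTR of Tcirg1. Within 1 kb its highest peaks stood at 87.7 and 74.5. Ndufv1, the subunit that binds NADH and the flavin, stood at 90.7 in both lists through peaks 7151 bp and 7398 bp downstream in Nudt8, and at 82.6 and 88.0 within 1 kb.

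The accessory subunits surround this core. Of 32 gene models 31 had a DOP peak and all had an SST peak, with a median percentile of 79.6 and 76.1. Ndufc1 ranked highest with 99.5 and 98.3, from peaks at -7357 bp and -7497 bp in Naa15, a subunit gene of an acetyltransferase of nascent proteins. Its own promoter peaks stood at 85.9 and 93.5. Ndufs6, a zinc-binding subunit, was lowest by the mean of both lists with 47.8 and 43.2. Among the series named by letter, the Ndufb genes stood above the Ndufa genes, with medians of 85.3 against 73.4 in the DOP list and 84.5 against 72.7 in the SST list. The 4 assembly factors, which build complex I but do not stay in it, had lower medians, 61.6 and 61.8, and ran from 50.3 (Ndufaf4) to 71.1 (Ndufaf3) in the DOP list and from 53.9 to 69.1 in the SST list.

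All 4 genes of complex II, succinate dehydrogenase, had peaks in both lists. Sdhb, the iron-sulfur subunit, had 2 peaks in each list and stood at 94.1 in the DOP list and 94.9 in the SST list. Sdha, the flavoprotein, stood at 88.1 and 81.8, with the highest peaks 7184 bp and 7173 bp downstream in Pdcd6. Within 1 kb its highest peaks stood at 75.3 and 71.8. Of the membrane anchors, Sdhd stood at 79.6 and 82.3 (in Timm8b, which starts 52 bp away), above Sdha within 1 kb. Sdhc stood at 58.4 and 73.2.

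Each of the 9 genes of complex III had peaks in both lists. Uqcrh, the hinge protein that contacts cytochrome c1, stood at 99.2 in both, from a peak in an intron of Lrrc41, whose start lies 198 bp away on the opposite strand. Uqcr11 stood at 98.9 and 99.3, with those peaks 7539 bp and 7518 bp downstream in Mbd3, and its promoter peaks stood at 95.1 and 83.4. Cyc1, which encodes cytochrome c1 itself, stood at 99.6 in the SST list, in its own intron, and at 96.7 in the DOP list through a peak 8003 bp downstream in Maf1 (92.1 within 1 kb). Lowest by the mean of both lists was Uqcrc2, a core protein, at 59.6 and 61.3. Cycs, the somatic cytochrome c, had 3 peaks within 1 kb in each list, and its highest stood at 81.4 and 83.6 in an intron, 293 bp and 286 bp downstream.

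Complex IV, cytochrome c oxidase, split by isoform. The 11 widely expressed genes all had a peak in both lists, with medians of 78.0 in the DOP list and 88.5 in the SST list. Cox4i1 ranked highest by the mean of both lists at 97.8 and 98.1, from a peak in a coding exon of its divergent neighbour Cox4nb. Cox6c followed at 98.4 and 97.2 with peaks in its own 5′ UTR. Cox7b, on the X chromosome, was lowest by the mean of both lists at 50.9 and 59.3, from peaks in Magt1. The other 7 genes encode isoforms for heart and skeletal muscle, testis or lung and hypoxia. Of these Cox4i2, Cox6a2, Cox6b2, Cox7a1, Cox7b2 and Cox8c had 0 peaks in either list. Cox8b had 1 DOP peak, at percentile 4.3 and 9596 bp downstream in Psmd13, and 0 SST peaks. Ndufa4l2, a hypoxia-linked relative of Ndufa4, had 4 DOP and 5 SST peaks but none within 1 kb, and the highest, at 83 and 77, lay 7217 bp and 7222 bp downstream in Shmt2.

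Set side by side, 0 of these 8 restricted isoforms and 7 of their 7 widely expressed counterparts (Cox4i1, Cox6a1, Cox6b1, Cox7a2, Cox7b, Cox8a and Ndufa4) had a peak within 1 kb, in each list. Over all protein-coding genes the share was 51.4% in the DOP list and 50.8% in the SST list. The restricted promoters were also poorer in CpG, with an observed to expected ratio from 0.175 to 0.467 over 500 bases on either side of the start, against 0.482 to 0.974 for the counterparts. These ranges did not overlap, but their nearest values, of Cox7b2 and Cox7b, lay close together. GC content did overlap, from 45.4% to 59.9% against 46.5% to 72.5%. Lower CpG without a peak was not particular to these isoforms. Over all genes the median ratio was 0.718 with a peak within 10 kb and 0.222 without. Neither list held a peak at a restricted start, so no difference between DOP and vehicle could be measured there.

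Complex V, ATP synthase, ranked above the other complexes. Its 17 genes with a peak had a median percentile of 96.3 in the DOP list and 94.5 in the SST list, and 93.5 and 92.0 within 1 kb. Above percentile 90 stood 11 of 17 in the DOP list and 10 of 17 in the SST list. In the catalytic head, Atp5b (the beta subunit, which holds the catalytic sites) stood at 97.8 and 97.7 and Atp5c1 (gamma) at 97.6 and 97.7. Atp5a1 (alpha) stood at 93.5 and 92. Atp5d (delta) reached 96.9 and 99.1 only through peaks at Midn, and its promoter peaks stood at 90.9 and 87.3. Atp5e (epsilon) was the lowest of the head at 83.7 and 77.3, from a peak in Slmo2, and stood at 76.6 and 53.8 within 1 kb.

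In the membrane sector and the stalk, Atp5g2 stood at 99.3 in both lists, with the peak 248 bp and 273 bp downstream in its own intron. Atp5g1, Atp5g2 and Atp5g3 encode the same mature c subunit. They did not rank alike, since Atp5g1 stood at 85.6 and 81.5 and Atp5g3 at 96.3 and 94.5. Atp5f1 (subunit b) stood at 98.8 and 98.6 and Atp5o (the stalk protein OSCP) at 96.7 and 96.2. The 2 genes at the bottom were Atp5s (45.8 and 40.5) and Atp5sl (26.3 and 22), which carry the Atp5 prefix but do not encode integral subunits of the enzyme. Atp5l-ps1 had 0 peaks.

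The DOP and SST lists ordered the genes alike. Over the 84 genes with a peak in both, the percentiles of the highest peak had a Spearman rho of 0.862 and a Pearson r of 0.868, against 0.904 and 0.931 over 12375 protein-coding genes. These correlations run across genes, which share their libraries and are not replicates. The median distance between the highest peaks of the lists was 37 bp, against 36 bp over all genes, and 72 of 84 genes (85.7%, all genes 78.9%) had them within 100 bp. More peaks in the DOP list than in the SST list were counted for 26 genes (30.2% of the 86 with a peak, background 32.5%), fewer for 27 (31.4%, background 28.5%) and equal numbers for 33. A highest peak more than 10 percentile points higher in the DOP list was found for 12 of 84 genes (14.3%, background 13.6%) and more than 10 points lower for 8 (9.52%, background 7.68%). These shares are near the background, and the median shift was 0.674 points, against 0.627 over all genes. The counts for these genes thus stood about where those of all genes stood.

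The scores themselves bear on how such shifts are read. Of peaks with no neighbour within 1 kb, 97.9% in each list had a whole-number score (within 0.05). Within chains of neighbours only 30.5% of the DOP peaks and 30.3% of the SST peaks did, but the sums over chains of 2 or 3 peaks were whole in 98.5% and 98.6% (within 0.05 for each score summed). A whole quantity was thus divided among neighbouring events, although the lists do not name what it counts. Where one list has a single event and the other has a pair, the highest score is lower at the same sum. For this reason the scores within 1 kb of the starts of each gene were also summed, and the sums ranked among all genes with such a peak, a step chosen after the values were seen.

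Over the 81 genes with a peak within 1 kb in both lists, the summed score had a median rank at percentile 54.8 in the DOP list and 55.0 in the SST list, where 50 is the median of all genes. By this measure 4 genes ranked more than 10 points higher in the DOP list (4.94%, background 7.18%) and 6 lower (7.41%, background 5.39%). The median absolute shift was 3.24 points, against 4.19 for the highest peak. By summed score complex V had the highest median rank of the roles, 72.6 in the DOP list and 68.0 in the SST list over 17 genes. Without Atp5s and Atp5sl it was 80.3 and 75.9 over 15 genes, while the complex I accessory subunits stood at 49.6 and 47.9 and the assembly factors at 34.0 and 26.2. The cytosolic ribosomal protein genes stood at 68.8 and 71.2 and the mitochondrial ribosomal protein genes at 39.4 and 40.2. Complex IV, whose widely expressed genes differed by about 10 points between the lists in the highest peak, stood at 51.5 and 51.4.

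**Figure D3:**
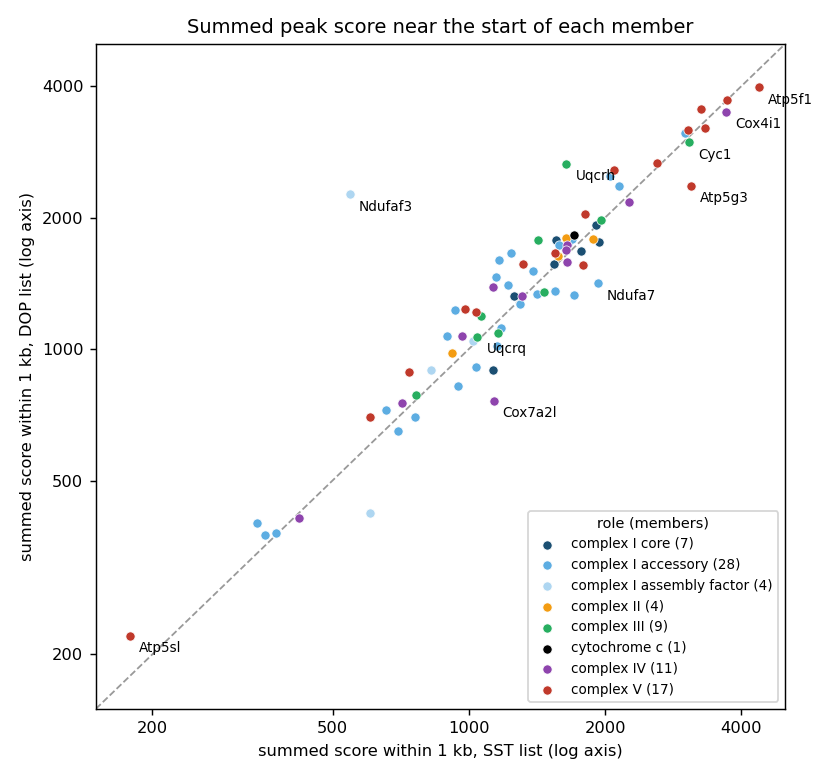
Summed score of the peaks within 1 kb of the starts in the SST list (x axis) and the DOP list (y axis), both on log axes and in the units of the deposited score, for the 81 genes with such a peak in both lists. Each point is 1 gene without error, coloured by role, and the dashed line marks equal sums. Most genes lie along the line, Ndufaf3 lies far above it (2261 against 546.6) and Cox7a2l below it (761 against 1135).

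Atp5f1 had the largest sum of any member, 3976 in the DOP list and 4368 in the SST list. Atp5j, which encodes coupling factor 6 and whose highest peak lies in the 5′ UTR of Gabpa, followed with 3726 and 3721. Atp5b had 3541.9 and 3253. Cox4i1, with 3492 and 3710, was the highest gene outside complex V, and Ndufa6, an accessory subunit of complex I, had 3129 and 3006. At the low end Atp5sl had 220 and 178 and Ndufv3, an accessory subunit of complex I, 375 and 354. Between these, Cycs had 1823 and 1708.

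Several of the largest shifts of the highest peak were absent from the sums. Uqcrq, a small subunit of complex III at the ubiquinone pocket, had the most negative shift, with percentile 59.3 in the DOP list and 86.1 in the SST list. The SST list had 1 event of score 945 at -40 bp from the nearest annotated start, and the DOP list had a pair of 512.1 and 379.9 at -30 and -112 bp. Its summed scores were 1067 (DOP) and 1045 (SST). Cox7a2, the widely expressed isoform of subunit VIIa, had the most positive shift, with 72.2 in the DOP list and 52.1 in the SST list, and there the SST list held the pair (420 and 228) where the DOP list held 1 event of 680. The sums were 1069 and 965. Cyc1 showed a like division, though its highest peak within 10 kb shifted by only -2.89 points. It had an SST event of 2462.8 at 349 bp and DOP events of 1190 and 1001.5 at 333 and 219 bp. Its sums were 2975 and 3074. Uqcrb, another small subunit of complex III, ranked 19.2 points higher in the DOP list with 1 DOP event against 2, and its sums were 786 and 763. At Ndufb11 the highest peak shifted by -21.9 points, but the summed score went the other way. It ranked 9.59 points higher in the DOP list (1465 against 1149).

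Across the members the direction of the shift mostly ran against the number of events. Of the 12 genes whose highest peak ranked higher in the DOP list, 9 had fewer DOP than SST peaks within 1 kb and 1 had more (Cox5b). Of the 8 that ranked lower, 5 had more DOP peaks (Sdhc, Uqcrq, Ndufb5, Cox5a and Ndufb11) and 0 had fewer. The same held over all genes, with 51.5% fewer among those that ranked higher and 61.6% more among those that ranked lower. Numbers of events and ranks come from the same call, and their part in the shifts was not tested further.

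**Figure D4:**
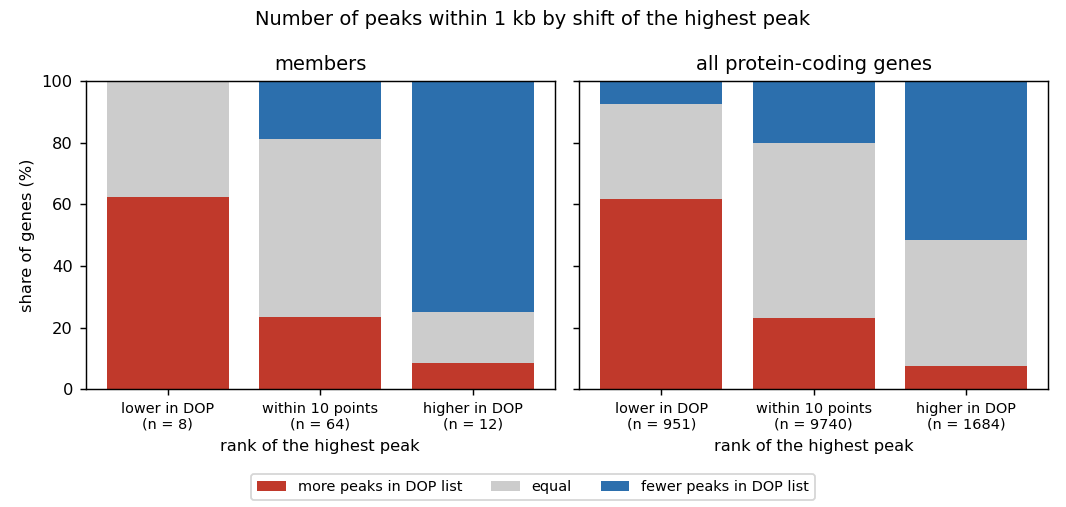
Share of genes (y axis, percent) with more (red), equal (grey) or fewer (blue) peaks within 1 kb in the DOP list than in the SST list, by whether the highest peak ranked over 10 percentile points lower, within 10 points, or over 10 points higher in the DOP list (x axis, with the number of genes), for the oxidative phosphorylation genes and for all protein-coding genes. Blue stands for 9 of the 12 members that ranked higher and 0 of the 8 that ranked lower.

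Other shifts remained, or appeared, in the sums. Ndufb6, an accessory subunit of complex I, had sums of 1656 (DOP) and 1242 (SST), a rank 12.5 points higher in the DOP list, and Ndufb2 had 1597 and 1167 (13.6 points higher). Cox7a2l, which takes part in assembling respiratory supercomplexes, went the other way. It had 3 SST peaks of 531.8, 336.9 and 266.3 and 1 DOP peak of 761, so its highest peak ranked 13.6 points higher in the DOP list while the shift of its summed score was -19.3 points. Atp5g3 had 4 SST peaks and 2 DOP peaks and sums of 3101 (SST) and 2366 (DOP), a shift of -10.4 points. Ndufa7 and Ndufa10, accessory subunits of complex I, had 1414 and 1333 in the DOP list and 1927 and 1708 in the SST list. Uqcrh had 2660 (DOP) and 1643 (SST), but an SST peak of 1920.5 lay at -1008 bp, just outside the limit, and its DOP partner of 1967 at -929 bp, so this value depends on the limit.

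Ndufaf3 had the largest difference of the set, with 9 DOP peaks and 5 SST peaks within 10 kb. Within 1 kb there were 5 DOP peaks and 1 SST peak. Upstream of the start the DOP list held 3 peaks (449.9, 348.1 and 235) and the SST list 1 (546.6). Downstream, the DOP list held a peak of 663.9 in the 5′ UTR at 277 bp and one of 564.1 in a coding exon at 676 bp, and the SST list held none within 1 kb. Its summed score ranked at percentile 78.2 in the DOP list and 19.4 in the SST list, a difference of 58.8 points, the largest of any member. Over all protein-coding genes the largest absolute difference was 73.7 points. Why the SST list held no event downstream of this start was not tested.

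Ndufb3, an accessory subunit of complex I, showed the opposite pattern and was the only member with SST peaks and 0 DOP peaks (background 2.73% of genes with a peak). The 3 SST peaks lay at -366, 145 and 535 bp from the start, with scores of 559.3, 534.7 and 351 and percentiles of 65.3, 63.3 and 44.5. The start of Ndufb3 lies 61 bp from that of Fam126b on the opposite strand. In the DOP list no peak was found over 109246 bp around it on chromosome 1, from the peak centred at 58561564 to that at 58670810 (mm9). The SST list held 5 peaks in this stretch, 3 of them in the upper 50% of the list and the highest at percentile 89.7, near the starts of Fam126b, Ndufb3 and Orc2. Genes with 3 or more SST peaks and 0 DOP peaks numbered 18 of the 13272 with a peak (0.136%), and Ndufb3 and Fam126b were both among them. Whether the DOP call covered this stretch is not given in the sources used here and was not tested. Cox8b was the only member with a DOP peak alone (background 4.03%), and that peak was the weak one named above.

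**Figure D5:**
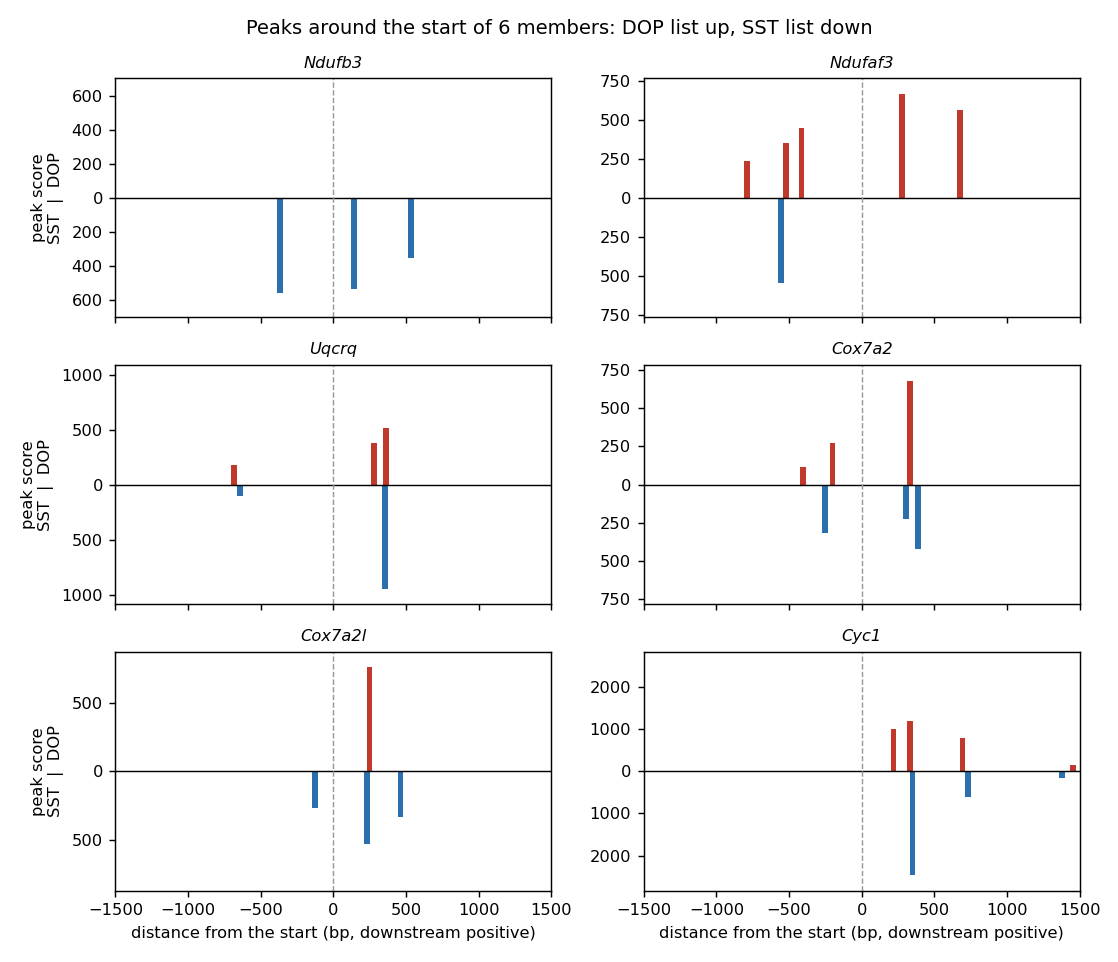
Peak scores (y axis, in units of the deposited score; DOP list upward in red, SST list downward in blue) by distance of the peak centre from the start of the transcript with the longest coding sequence (x axis, bp, downstream positive) for Ndufb3, Ndufaf3, Uqcrq, Cox7a2, Cox7a2l and Cyc1. Bars are single peaks without error. Ndufb3 has bars in the SST list only, and at Uqcrq, Cox7a2 and Cyc1 a single bar in one list stands beside a pair in the other.

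The remaining large differences in number of peaks were often in peaks of neighbours. Atp5b had 11 DOP peaks and 8 SST peaks, of which 4 and 3 lay within 1 kb and the others at Baz2a. Atp5e had 3 DOP and 6 SST peaks with 2 and 2 within 1 kb, and the 3 SST peaks without a partner were weak ones near Slmo2 (percentiles 10.3, 14.4 and 0.384). Atp5g1 had 5 DOP and 3 SST peaks, and both unmatched DOP peaks lay 9779 bp and 9935 bp away, nearest to Ube2z. Ndufb11 had 5 DOP and 2 SST peaks, all nearest to Rbm10. Atp5o had 4 DOP and 2 SST peaks, and Ndufa10 had 2 DOP and 4 SST peaks, all within 1 kb for the latter.

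The 10 kb limit cut between near values in some places. The outermost DOP peak counted lay 9935 bp from Atp5g1 at percentile 33.0, and the next lay 10159 bp from Atp5d at percentile 84.1. In the SST list the corresponding peaks belonged to Ndufb6, at 9785 bp (percentile 75.6) and 10100 bp (63.9).

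Of the 3 members on the X chromosome, Ndufa1 and Cox7b ranked well below the medians of all genes in both lists, and Ndufb11 did so in the DOP list but lay close to the median in the SST list. Ndufa1 stood at 45.6 in the DOP list and 47.3 in the SST list, Ndufb11 at 53.4 and 75.3, and Cox7b at 50.9 and 59.3. All protein-coding genes on the X chromosome with a peak had medians of 49.1 and 48.9, against 79.0 and 78.2 on the autosomes. In the SST list Ndufb11 stood nearer to the autosomal median than to that of its own chromosome.

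Genes that serve the pathway without being subunits were also marked. Of 29 assembly factors and related genes 28 were found in the annotation, and all 28 had a peak in both lists (background 55.3%). The medians of their highest peaks were 72.25 (DOP) and 77.35 (SST). Within 1 kb of a start 26 had a peak in each list (background 51.4% and 50.8%), and Sco2 and Cyct had none. Surf1, Atpif1, Tmem70, Sdhaf2, Cox19 and Acad9 stood above percentile 90 in both. The highest peak ranked more than 10 points higher in the DOP list for 2 of them (background 13.6%) and lower for 4 (background 7.68%). It ranked higher at Hccs, the ligase that attaches haem to cytochrome c (69.5 against 53.6), and at Cox16 (32.7 against 18.1). It ranked lower at Sdhaf1, an assembly factor of complex II (44 against 74), Taco1 (63 against 82.5), Sco2 (78.5 against 91.4) and Ttc19 (77.9 against 89.9). All peaks counted for Sco2 lay more than 1 kb from its start. For these 6 genes the direction ran against the number of events: Hccs and Cox16 had fewer peaks within 10 kb in the DOP list (1 against 2 and 2 against 3), and Sdhaf1, Taco1, Sco2 and Ttc19 had more (2 against 1, 4 against 3, 4 against 2 and 4 against 2). The part of these numbers in the shifts was not tested.

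All 12 transcriptional regulators of the pathway had a peak in both lists (background 55.3%). Within 1 kb, 12 had a DOP peak (background 51.4%) and 11 an SST peak (background 50.8%), with none in the SST list for Ppargc1b. Gabpb1 and Gabpa, subunits of the ETS factor GABP, stood at 99.4 and 98.6 in the DOP list and 99.5 and 95.3 in the SST list, the values of Gabpa being those of the peaks it shares with Atp5j. Pprc1, a coactivator of the PGC-1 family, had 14 DOP and 18 SST peaks and stood at 99.7 and 98.3. Ppargc1a, which encodes PGC-1 alpha, was among the lowest at 54.7 and 39. Tfam, which packages mitochondrial DNA, had 1 DOP peak at 94.3 and 3 SST peaks of which the highest stood at 70.1. Tfb1m was lowest in both lists, at 34.5 and 35.5. The highest peak ranked more than 10 points higher in the DOP list for 3 of the 12, Tfam, Esrra and Ppargc1a (background 13.6%), and lower for 0 (background 7.68%). Tfam and Esrra had fewer DOP than SST peaks (1 against 3 and 4 against 5), and Ppargc1a had more (2 against 1).

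As a check of the cell label, peaks near marker genes were counted. Among 4 neural progenitor markers Vim alone had a peak (98 and 94), and Nes, Sox2 and Pax6 had 0. Among ventral forebrain genes Dlx1, Meis2 and Foxp1 had peaks in both lists, while Gsx2 had 0. Of 5 markers of mature striatal neurons 1 had a peak (Ppp1r1b), of 3 astrocyte markers 0, of 3 microglial markers 1 (Aif1, with 0 peaks within 1 kb), and of 3 oligodendrocyte markers 2 in the DOP list and 1 in the SST list. The progenitor label thus rested on part of its markers, and H3K9ac peaks do not measure transcripts.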

How the data were processed

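H3K9ac was measured by single-end ChIP-sequencing in 2 Q111 DOP and 2 Q111 SST samples, with 1 IgG sample. Reads were aligned to mm9 with Bowtie 2 according to the study's methods, whereas the submitters' processing notes name BWA 0.7.10, and events were called with GPS/GEM. The authors deposited 1 event list per condition, with a score for each 200-bp interval. How samples and IgG entered the call, its threshold and the definition of the deposited score are not given in the sources used here. IgG was not used here.

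Gene models, starts and UTRs came from GENCODE vM1, sequence from NCBIM37 (mm9). The members and lists were chosen with earlier results of these data known. Peaks were assigned by their listed centre to every gene with a start within 10 kb. Peaks of the lists were shared when intervals overlapped by at least 1 bp. Scores were ranked within each list. Sequence features were read at the start of the transcript with the longest coding sequence. With 1 list per condition no test was run, and all protein-coding genes gave the background. Scripts were tested on simulated data. Named genes were, for each role, those with the highest and lowest mean percentile, those with peaks in 1 list or none, the 5 with the largest differences in peak number and in percentile each way, complex II, Cycs, Cyc1 and the restricted isoforms with their counterparts. Some results for single genes are not reported here. Others are named from the lists, or were chosen after their values were seen. Summed scores, chosen after the values were seen, took peaks within 1 kb of a start, and peaks within 1 kb of the next were chained to test whether sums were whole. Alternatives were other windows, the nearest start, stricter score limits, other rules of sharing, a limit of 20 percentile points and 1 model per symbol. Figures were drawn with matplotlib 3.10.9, sequence was read with samtools 1.23.1 and pysam 0.24.0, and tables and intervals were made with pandas 2.3.3, scipy 1.17.1 and numpy 2.4.6 under Python 3.11.15. The promoter table of another build was not used here.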

Additional observations from a re-analysis of the deposited data

How the results depend on the processing

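No paired analysis was possible because 1 peak list stands for each condition, with no values per sample, and for the same reason no replicate could be left out. Of 75 values under an alternative, 53 stayed within 1.5 times the value given (for medians, within its interval) and 22 did not. The numbers of genes with a peak stayed within this limit under every window and score limit run. Counts of peaks fell by construction where fewer peaks entered. With the nearest start only, they were 173 (DOP) and 180 (SST), with 17 and 21 unshared and 17 genes with more DOP peaks. In the top 50% of each list they were 176 and 184, with 12 and 18 unshared, 12 genes with more DOP peaks, 0 genes in the DOP list only and 2 in the SST list only. A window of 1 kb left 20 unshared DOP peaks, and it and a score of at least 100 each left 0 genes in the DOP list only. Reciprocal overlap of 50% gave 61 (DOP) and 57 (SST) unshared peaks, and centres within 500 bp gave 18 and 14. With a limit of 20 points, 1 gene ranked higher in DOP and 2 lower. Ranked by summed score, 4 ranked higher. The summed score and the count of 1 model per symbol were chosen after seeing the data. Depth is unknown, so how far it limits the weak peaks cannot be given.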
